A study of Gallus gallus with 21 samples.

Results

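The genes described here encode collagens, laminins, nidogens, perlecan, fibronectin, fibrillins, fibulins, elastin and integrins, and were measured in testis, ovary, heart and brain of chicken embryos. Members were chosen by symbol alone, as probe sets with 1 annotated gene whose symbol begins as those of these families do. The rule found 143 probe sets of 73 genes, of 19874 probe sets in the deposited table (9774 genes with a single symbol). Of these, 9 probe sets of 4 genes match only by their symbols and encode neither matrix proteins nor integrins. They are COL4A3BP, a ceramide transfer protein, ITGB1BP1, a cytoplasmic partner of integrins, ITGB1BP3, a nicotinamide riboside kinase of muscle, and ITGB3BP, a kinetochore protein. The remaining 134 probe sets of 69 genes fall into fibrillar collagens (9 genes), basement membrane collagens (6 genes), other collagens (17 genes), laminins with nidogens and perlecan (13 genes), fibronectin and elastic fibre proteins (9 genes) and integrins (15 genes).

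The study asked how expression differs between male and female birds in soma and gonads. The paper reports that genes on the Z chromosome were in general higher in males. Of the members, 4 genes lie on Z, namely COL4A3BP, FBN2, ITGA1 and ITGA2. The part of this in their sex differences was not tested. White Leghorn embryos (4 males and 4 females) were dissected after 18 days of incubation, untreated in all groups, and sexed by eye on the gonads. The 21 arrays held are testis (males 9, 16, 19 and 21), ovary (females 2, 12 and 20), male heart and male brain (16, 19 and 21), and female heart and female brain (2, 10, 12 and 20). Testis and ovary are the left gonads, heart is an apical piece, and brain is the diencephalon with other parts from which hemispheres, optic lobes and cerebellum were removed. Gonads were extracted with a kit of their own, different from that of heart and brain, so kit and tissue cannot be told apart in any comparison of gonad with soma. In pieces of tissue such as these, a change in the number of cells of a type and a change in RNA per cell cannot be told apart.

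The extracellular matrix is the protein scaffold between cells. Fibrillar collagens form the tensile fibres of connective tissue, while type IV collagen and laminin each assemble into a sheet, joined by nidogen and perlecan, to make the basement membrane under epithelia and around muscle fibres and vessels. Fibrillins and elastin make elastic fibres, and integrins are pairs of an alpha and a beta chain in the cell membrane that bind these proteins from the cell's side. In gonads, basement membrane surrounds the cords of Sertoli and germ cells in the testis, and in adult ovaries it encloses each follicle.

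All values are log2 intensities of probe sets, which the authors deposited after background correction and normalization. They are comparable between arrays for 1 probe set and not between probe sets, so levels of different genes are not set against each other. Of the 143 probe sets, 128 (68 genes) have values in gonads, 101 (56 genes) in heart and 102 (61 genes) in brain. Arrays of 1 tissue correlated at 0.878 to 0.981 over all probe sets with values in gonads, at 0.951 to 0.979 in heart and at 0.952 to 0.978 in brain, and the number of arrays limits the precision. The markers of each tissue were at their labelled places. SOX9, the Sertoli cell factor, averaged 8.39 ± 0.43 in testis and 3.00 ± 0.04 in ovary, and aromatase (CYP19A1), the oestrogen-making enzyme of the ovary, averaged 2.36 ± 0.01 in testis and 14.27 ± 0.14 in ovary (SD, n = 4 and 3). Cardiac muscle markers averaged 13.07 to 13.21 per heart array, and neuron markers 11.70 to 12.07 per brain array. A difference was called where limma gave an adjusted p under 0.05 (Benjamini-Hochberg over all probe sets of the comparison) together with a fold-change over 1.5. Where a gene has several probe sets, values are of the one with the highest mean unless another is named.

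Testis had higher values than ovary for more matrix probe sets than the reverse. Among 128 member probe sets with values in gonads, 39 were called higher in testis and 12 lower (30.5% and 9.38%), against 12.8% and 13.8% of all 16499 probe sets tested. The median log2 fold-change of testis over ovary was 0.37 over the members and 0.02 over all probe sets, and 91 of the 128 were above 0. Counted by gene, with 1 probe set each, 17 were called higher and 9 lower of 65 measured. By gene, the share called lower was thus near the 13.8% of all probe sets. The share over all genes with 1 probe set each is not given here. The arrays of the sexes did not overlap in 55 probe sets that were higher in testis and 18 that were lower, where 20.3% and 19.6% of all probe sets did not overlap. The same gonad arrays differed in markers of other cell types. Smooth muscle and pericyte markers averaged 9.88 to 10.41 per testis array and 8.06 to 8.33 per ovary array, with 5 of 7 called higher in testis and none lower, among them myosin MYH11 at 10.10 ± 0.52 in testis and 5.98 ± 0.59 in ovary. Fibroblast markers averaged 9.56 to 10.04 in testis and 8.74 to 9.21 in ovary, with 6 of 8 called higher and none lower. Kidney and adrenal markers averaged 4.25 to 4.74 in testis and 5.60 to 7.89 in ovary, with 5 of 8 called lower and ovary 12 the highest array in 7 of 8. The part of these cells in the results was not tested, and without embryo 12 the counts were 38 higher and 11 lower.

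**Figure D1:**
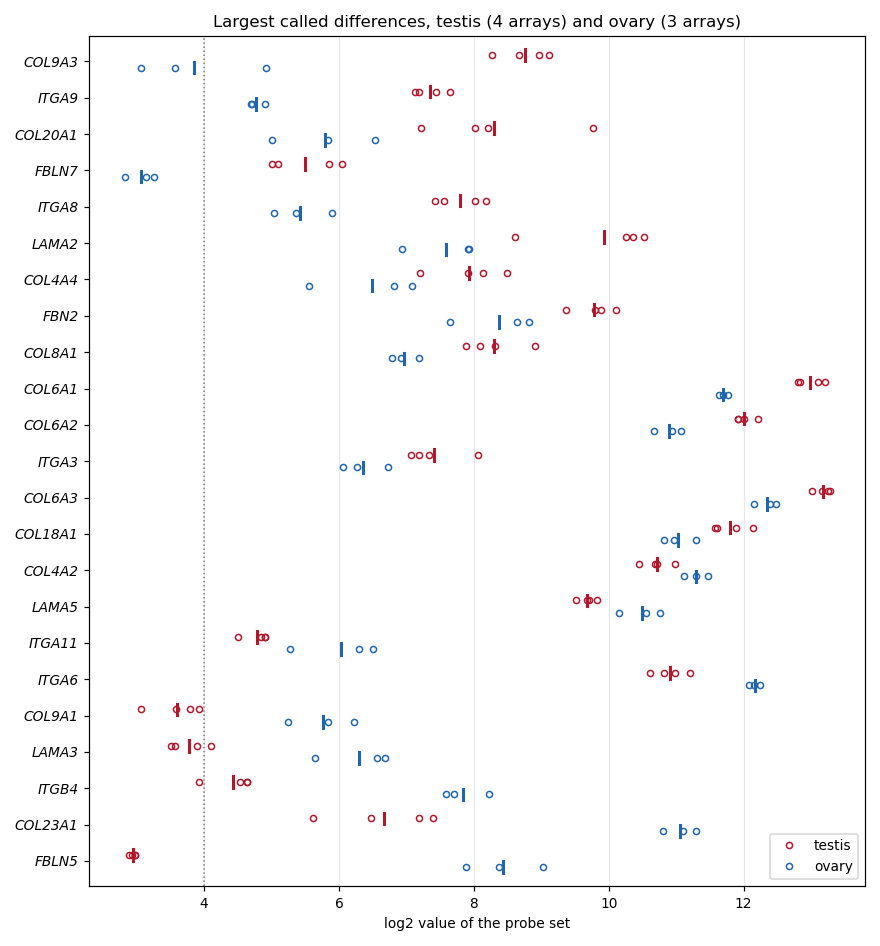
Log2 intensity of the called genes with the largest differences between testis and ovary, 14 higher in testis and 9 lower. Each dot is 1 array, the short vertical bar is the group mean, and the dotted line marks log2 4.0, under which a mean is not told apart from background. No testis array of these genes overlaps an ovary array, and COL9A3 and FBLN5 lie farthest apart.

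Among the minor collagens, 12 probe sets were called higher in testis and 3 lower of 27, with a median log2 fold-change of 0.65. COL9A3, a chain of type IX collagen, which decorates the surface of cartilage fibrils, had 8.67, 8.27, 9.12 and 8.97 in the testes of males 9, 16, 19 and 21, against 4.92, 3.07 and 3.57 in the ovaries of females 2, 12 and 20. All testes lay over 3 log2 units above the highest ovary, and the difference was 4.91 ± 0.49 (SE), a 30.0-fold change with adjusted p = 6.79e-06. Its other probe set changed 8.90-fold the same way. The ovary mean lay under 4.0, the lowest value that the higher sex mean takes among deposited probe sets, so it cannot be distinguished from background and the fold itself is uncertain. COL9A1, another chain of the same collagen, ran the opposite way, with 3.06, 3.93, 3.59 and 3.79 in testes and 5.83, 5.24 and 6.23 in ovaries (log2 fold-change −2.17 ± 0.29, adjusted p = 0.000839). Here the testis arrays are the ones near background. COL9A3 and COL9A1, chains of 1 trimeric protein, thus differed in opposite directions, each with the lower gonad near background. Cartilage markers, of which 3 were measured, averaged 9.08 to 9.40 per testis array and 5.59 to 6.35 per ovary array. All 3 were called higher in testis, but SOX9 is also a Sertoli cell marker, and their part in the COL9A3 result was not tested.

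The 3 chains of type VI collagen, a beaded filament network around cells, were all higher in testis. COL6A1 had 12.83, 13.21, 12.80 and 13.10 in testes and 11.77, 11.69 and 11.64 in ovaries. COL6A2 had 12.01, 11.91, 11.91 and 12.22 in testes and 11.07, 10.94 and 10.67 in ovaries, and COL6A3 had 13.25, 13.01, 13.17 and 13.28 in testes and 12.48, 12.39 and 12.16 in ovaries. Neither sex overlapped the other in any of the 3 genes, and spreads within a sex were small beside the gap. The fold-changes were 2.44, 2.17 and 1.78, with adjusted p of 0.000417, 0.000245 and 0.000517. All 3 probe sets of COL6A1 were called higher. COL20A1 (5.66-fold, adjusted p = 0.00108) and COL8A1, a chain of a short-chain network collagen (2.53-fold, adjusted p = 0.0102), were also called higher in testis. So was COL18A1, the basement membrane collagen from which endostatin is cut (1.71-fold, adjusted p = 0.00183). The COL8A1 call was lost without embryo 20 (adjusted p = 0.0545).

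COL23A1, a transmembrane collagen, had the largest called difference in favour of ovary among the collagens. It had 7.19, 7.39, 5.61 and 6.47 in testes, against 11.10, 11.29 and 10.80 in ovaries. The testes ranged over nearly 2 log2 units while the ovaries kept within 0.5, and no array overlapped. The log2 fold-change was −4.39 ± 0.33, a 21-fold difference with adjusted p = 1.99e-08. A second COL23A1 probe set, weak in both gonads, was 3.34-fold lower in testis.

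The main fibrillar collagens, those of tendon, skin and bone, differed little. Of 22 fibrillar probe sets, 4 were called higher in testis and none lower, with 17 above 0 and a median of 0.26. COL1A1 had 13.56, 13.55, 13.40 and 13.45 in testes and 13.08, 12.74 and 12.56 in ovaries, a 1.62-fold difference (adjusted p = 0.0195). This call was lost without embryo 12 or embryo 20. For COL1A2, its partner chain, testes had 13.56, 13.58, 13.33 and 13.45 and ovaries 13.17, 13.07 and 12.81, which missed the threshold (adjusted p = 0.0888), though 1 of its weaker probe sets was called at 1.67-fold. COL3A1, which forms mixed fibrils with type I collagen, had 14.27, 14.27, 14.12 and 14.32 in testes and 14.38, 14.63 and 14.33 in ovaries. That gave −0.20 with adjusted p = 0.548. The other calls were single probe sets of COL5A2 (1.95-fold) and COL11A1 (2.26-fold). COL2A1, the major collagen of cartilage, ranged from 6.68 to 7.88 in testes and from 6.25 to 8.43 in ovaries, with overlap and adjusted p = 0.874.

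Type IV collagen has 6 chains, and its probe sets were the class in which most values ran towards ovary, with 7 of 9 below 0 and a median of −0.49. These 9 cover 5 genes, and several of them are of COL4A2. By gene, COL4A3 (0.09) and COL4A4 (1.45) ran towards testis. Endothelial markers averaged 7.68 to 8.01 per testis array and 8.14 to 8.36 per ovary array, with 1 of 9 called higher in testis (CLDN5) and 4 lower (EGFL7, FLT1, VWF and CDH5), and their part was not tested. COL4A1 had 9.19, 8.76, 8.80 and 9.33 in testes and 9.53, 9.56 and 9.32 in ovaries. COL4A2, which lies beside it on chromosome 1, had 10.69, 10.45, 10.71 and 10.99 in testes and 11.47, 11.30 and 11.12 in ovaries. These are the ubiquitous chains of basement membrane. COL4A1 was under the fold threshold (1.36-fold, adjusted p = 0.0304), and COL4A2 was called lower in testis at 1.5-fold (adjusted p = 0.00206) but lost the call under 8 alternatives. COL4A5 had 11.53, 11.47, 11.17 and 11.54 in testes and 12.73, 12.19 and 12.44 in ovaries. No array overlapped, yet adjusted p was 0.107 in the joint fit and 0.00341 where only the gonad arrays were fitted. COL4A4 was the only type IV chain called higher in testis, with 8.49, 8.13, 7.20 and 7.92 in testes and 5.55, 6.82 and 7.08 in ovaries (2.73-fold, adjusted p = 0.0366). Its call was lost without any one of embryos 2, 9, 12, 16 and 21.

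Laminins are cross-shaped trimers of an alpha, a beta and a gamma chain, and the alpha chains separated the gonads. In the class of laminins, nidogens and perlecan, 8 of 23 probe sets were called higher in testis and 2 lower, with a median of 0.66. LAMA2, the alpha chain of muscle and nerve basement membrane, had 10.52, 8.61, 10.25 and 10.36 in testes and 7.91, 7.93 and 6.93 in ovaries. The testis of male 16 lay well below the other 3 but still above every ovary. The log2 fold-change was 2.35 ± 0.37 (5.09-fold, adjusted p = 8.54e-05), and a second probe set was called at 6.68-fold. Of the 4 LAMA1 probe sets, 3 were called higher in testis, at 2.14-, 3.53- and 6.49-fold. The one with the highest mean was not, with 7.88, 6.77, 7.95 and 7.44 in testes and 7.30, 5.92 and 6.80 in ovaries (adjusted p = 0.157).

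LAMA3 and LAMA5, alpha chains of epithelial basement membranes, were higher in ovary. LAMA3 had 3.51, 3.90, 4.10 and 3.57 in testes, near background, and 6.68, 6.57 and 5.65 in ovaries (5.77-fold lower in testis, adjusted p = 3.12e-05). LAMA5 had 9.71, 9.68, 9.51 and 9.83 in testes and 10.76, 10.15 and 10.55 in ovaries (1.74-fold lower in testis, adjusted p = 0.0073). The LAMA5 call was lost without embryo 2. For the chains shared by most laminins no difference was called in the joint fit. LAMC1, the common gamma chain, had 13.62, 13.96, 13.42 and 13.69 in testes and 13.83, 13.66 and 14.02 in ovaries, with adjusted p = 0.447. LAMB1 had 12.97, 12.82, 12.84 and 12.86 in testes and 12.14, 12.34 and 12.15 in ovaries, without overlap, with adjusted p = 0.0842 in the joint fit and 0.00382 where only the gonad arrays were fitted. NID1, which links laminin to type IV collagen, had 13.12, 12.86, 12.61 and 13.11 in testes and 12.39, 12.41 and 12.28 in ovaries. That was 1.48-fold, just under the fold threshold, while 2 of its weaker probe sets were called at 1.58- and 1.94-fold. HSPG2, or perlecan, had 8.73, 8.89, 8.74 and 8.99 in testes and 8.23, 8.27 and 8.83 in ovaries (adjusted p = 0.267).

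FBLN5, a fibulin needed for the assembly of elastic fibres in mammals, showed the largest difference of all members. It had 2.88, 2.98, 2.93 and 2.98 in testes, at background, and 7.88, 8.38 and 9.03 in ovaries (log2 fold-change −5.49 ± 0.25, adjusted p = 2.06e-06). The other FBLN5 probe set had 2.76, 2.77, 2.80 and 3.40 in testes and 9.49, 9.91 and 10.67 in ovaries (−7.09 ± 0.46, adjusted p = 1.66e-07). Since the testis values are at background, the folds of 44.8 and 136 depend on the background correction. In the class of fibronectin and elastic fibre proteins, 8 of 22 probe sets were called higher in testis and only the 2 of FBLN5 lower. Most of the 8 were probe sets of FBN2, described below. FBLN7 had 5.09, 6.04, 5.00 and 5.85 in testes and 3.25, 2.82 and 3.14 in ovaries, where it was near background (5.36-fold, adjusted p = 3.07e-05).

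FBN2, a fibrillin of embryonic microfibrils that lies on the Z chromosome, was called higher in testis in 5 of 6 probe sets. Its log2 fold-changes in these were 1.35 to 2.19. The probe set with the highest mean over its arrays had 10.11, 9.36, 9.88 and 9.80 in testes and 7.65, 8.82 and 8.64 in ovaries, without overlap. FBN1, the main fibrillin after birth in mammals, had 7.39, 7.21, 6.96 and 7.05 in testes and 6.64, 6.63 and 6.21 in ovaries (1.58-fold, adjusted p = 0.00719), a call lost without embryo 9 or embryo 20. FN1, or fibronectin, had 12.82, 12.35, 12.55 and 12.58 in testes and 12.26, 12.43 and 12.29 in ovaries (adjusted p = 0.172). ELN, elastin itself, had 7.02, 6.87, 5.85 and 7.02 in testes and 7.24, 7.36 and 7.15 in ovaries (adjusted p = 0.137). Testis and ovary thus overlapped in FN1 but not in ELN.

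Among the receptors, 5 of 16 integrin probe sets were called higher in testis and 4 lower, with a median of 0.19. ITGA9, an alpha chain that binds tenascin and osteopontin, had 7.64, 7.19, 7.44 and 7.12 in testes and 4.70, 4.71 and 4.90 in ovaries (5.98-fold, adjusted p = 4.72e-06). ITGA8, which binds nephronectin in the developing kidney of mice, had 8.02, 7.42, 8.18 and 7.55 in testes and 5.89, 5.36 and 5.03 in ovaries (5.14-fold, adjusted p = 0.000354). Both were far outside the spread within a sex. ITGA3, a laminin receptor chain, was 2.09-fold higher in testis (adjusted p = 0.00654, and 0.0511 without embryo 20). ITGA1, a collagen receptor chain on the Z chromosome, was 1.55-fold higher (adjusted p = 0.00186).

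The integrin chains higher in ovary included both parts of the laminin receptor of hemidesmosomes, ITGA6 and ITGB4. ITGB4 had 4.53, 4.64, 4.64 and 3.93 in testes and 8.23, 7.58 and 7.71 in ovaries (10.6-fold lower in testis, adjusted p = 6.26e-07). ITGA6 had 10.61, 10.98, 11.20 and 10.82 in testes and 12.08, 12.16 and 12.25 in ovaries (2.40-fold lower, adjusted p = 1.3e-06), and both of its probe sets were called. LAMA3, named above, encodes the alpha chain of the laminin that this receptor binds in skin. ITGA11, a collagen receptor chain, was 2.36-fold lower in testis (adjusted p = 0.0187), a call lost without embryo 2. ITGB1, the beta chain that most of these alpha chains share, had 12.84, 12.90, 12.65 and 12.81 in testes and 12.58, 12.62 and 12.66 in ovaries, with adjusted p = 0.342. ITGAV, the alpha chain of the vitronectin receptor, gave −0.04.

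Of the genes that match by symbol alone, only COL4A3BP had a call in gonads. It lies on the Z chromosome, and 1 of its 3 probe sets was 2.07-fold higher in testis (adjusted p = 0.00262).

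**Figure D2:**
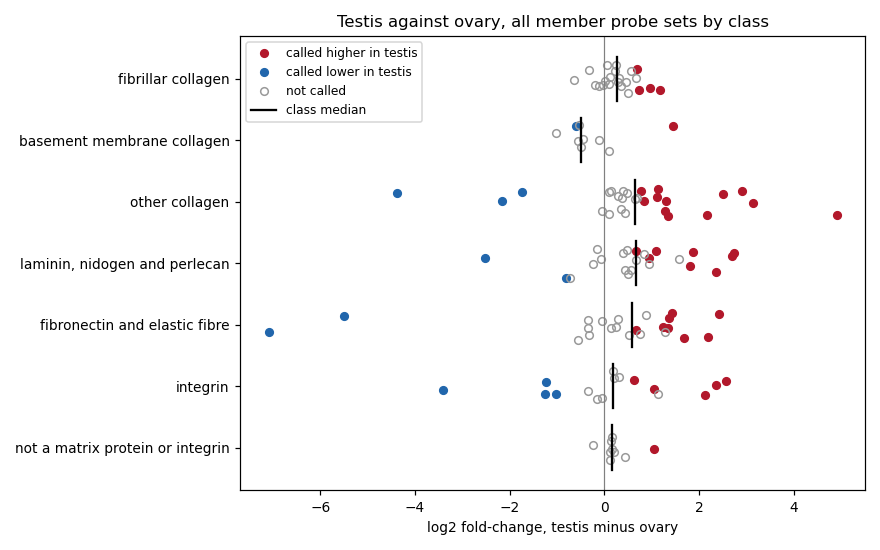
Log2 fold-change of testis over ovary for each of the 128 member probe sets with gonad values, by class. Red dots were called higher in testis, blue dots lower and grey dots neither, and the black line is the class median. The median is below 0 for basement membrane collagens and highest for laminins and for other collagens.

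Different probe sets of 1 gene mostly ran together. Of 34 genes with several probe sets in gonads, 30 had all of one sign, and none had calls in both directions. In 7 genes all probe sets were called, in 12 some, and in 15 none. COL13A1 is an example of a split, since 1 probe set was called at 4.50-fold while the other gave −0.05. The called one averaged 3.65 over the gonad arrays, under 4.0, so its fold is uncertain.

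Neighbouring genes of the families were set side by side as well. The GRCg7b gene table places 8 pairs of members next to each other on a chromosome, 7 of them with no gene between. COL6A1 and COL6A2 on chromosome 7 had 1.29 and 1.12 in testis over ovary. COL4A1 and COL4A2 on chromosome 1 had −0.45 and −0.59. In other pairs the values differed more. COL9A1 and COL19A1 on chromosome 3 had −2.17 and 0.44, and COL4A4 and COL4A3 on chromosome 9 had 1.45 and 0.09. LAMB1 and LAMB4 on chromosome 1 had 0.66 and −0.73. ITGA1 and ITGA2 on Z had 0.63 and −0.34, and COL5A2 and COL3A1 on chromosome 7 had 0.51 and −0.20. Of the genes in the pairs that differed more, COL9A1, COL4A4 and ITGA1 were called in the probe set with the highest mean. COL6A1, COL6A2 and COL4A2 were called as given above. COL4A3 stayed between 4.60 and 4.80 in all gonads.

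Genes that make, bind or degrade the matrix were taken from 4 further lists. Of 20 measured genes of collagen processing, 4 were called higher in testis and 1 lower. The 1 lower was P4HA2, an alpha chain of the prolyl hydroxylase that stabilizes the collagen helix, at 5.68 ± 0.26 in testis and 9.01 ± 0.45 in ovary (10.1-fold, adjusted p = 3.3e-07; SD, n = 4 and 3). SERPINH1, the collagen chaperone, averaged 12.92 in both gonads. Of 26 other matrix proteins, 12 were called higher and 7 lower. VTN, or vitronectin, averaged 9.16 ± 0.58 in testis and 5.19 ± 0.59 in ovary (15.7-fold, adjusted p = 1.66e-07), whereas LTBP1, which binds latent TGF-beta to microfibrils, averaged 11.07 ± 0.88 in testis and 14.37 ± 0.15 in ovary (9.84-fold lower, adjusted p = 7.68e-05). Among 15 proteases and inhibitors, 7 were called higher and 3 lower. The plasminogen activators divided, with PLAU, the urokinase type, 6.74-fold higher in testis and PLAT, the tissue type, 6.64-fold lower. Of 28 adhesion partners and other receptors, 7 were called higher and 4 lower, among them CD47, the thrombospondin receptor, at 9.78 ± 0.15 in testis and 11.84 ± 0.09 in ovary. In the 4 lists the median log2 fold-changes were 0.19, 0.28, 0.44 and 0.19 against 0.00 over all genes. Over all probe sets, rather than genes, 12.8% were called higher in testis and 13.8% lower.

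No member was called between male and female hearts. With limma, 0 of 101 probe sets were called, where 1.34% of all 15282 were called higher in males and 0.393% lower, and 7 members had an unadjusted p under 0.05 (10.5% of all did). The median log2 fold-change of male over female was 0.05. The 7 were single probe sets of ITGB5, COL21A1, FBLN2, FBLN1, COL4A3BP, COL3A1 and FBLN5, all higher in males, by 0.46 to 1.08. COL4A3BP was the nearest to a call, with 6.53, 6.59 and 6.83 in male hearts and 5.74, 6.05, 5.87 and 5.94 in female hearts. Its adjusted p was 0.16, and 0.0236 without embryo 16, which was then the only call.

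In brain, 1 of 102 member probe sets was called higher in males and 1 lower, against 1.27% and 0.31% of all 16113, and 11 had an unadjusted p under 0.05, as did 10.2% of all. The higher one was a probe set of COL4A3BP, a gene on Z, with 5.93, 5.91 and 5.97 in male brains and 5.14, 5.43, 5.42 and 5.19 in female brains (1.56-fold, adjusted p = 0.0265). The lower one was a weaker HSPG2 probe set, with 4.56, 5.01 and 5.43 in male brains and 6.20, 5.73, 6.17 and 6.58 in female brains (2.25-fold, adjusted p = 0.00192). The perlecan probe set with the highest mean went the other way, with 6.31, 6.55 and 6.40 in male brains and 5.30, 5.85, 6.12 and 6.96 in female brains, and was not called. Neither call was made where only the brain arrays were fitted, when the HSPG2 probe set had adjusted p = 0.15.

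In the 2 weaker probe sets of fibronectin, the sex difference in brain depended on the array of male 19. In 1 FN1 probe set, male brains 16, 19 and 21 had 5.27, 7.60 and 5.67, and female brains 2, 10, 12 and 20 had 8.18, 7.64, 8.44 and 8.37. In another, male brains had 7.24, 9.33 and 7.49, and female brains 9.76, 9.33, 9.87 and 9.70. In both, males 16 and 21 lay about 2 log2 units under every female while male 19 lay beside the lowest female. The differences of −1.98 and −1.64 were not called with all arrays (adjusted p = 0.132 and 0.117), and were called without embryo 19, at −2.69 (adjusted p = 0.0278) and −2.30 (adjusted p = 0.0142). The 2 stronger FN1 probe sets gave −0.62 and −0.41, the one with the highest mean having 10.60, 10.53 and 10.59 in male brains and 11.13, 10.59, 11.18 and 11.06 in female brains. Without embryo 19 the brain counts were 1 higher and 4 lower, the fourth lower one being COL6A1 at −0.81 (adjusted p = 0.0398).

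**Figure D3:**
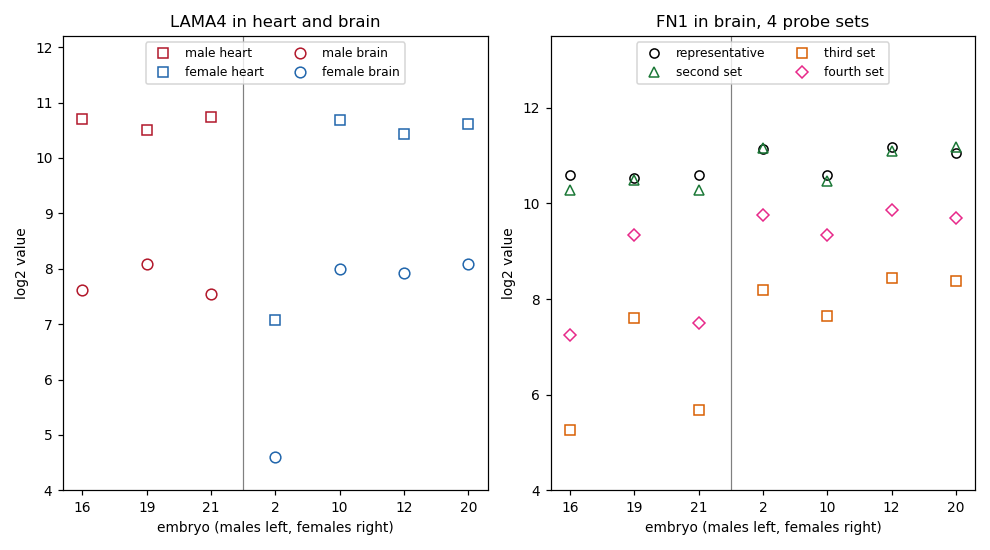
Log2 intensity of LAMA4 in heart and brain arrays, and of 4 FN1 probe sets in brain arrays, by embryo number. Each dot is 1 array. LAMA4 is low in both tissues of female 2 alone, and in 2 of the FN1 probe sets males 16 and 21 lie under male 19 and all females.

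Whether the sex difference itself varied between tissues was tested as an interaction. Against heart, the sex effect in gonads was called higher in 10 of 89 member probe sets and lower in 5, where 6.25% and 8.41% of all were. Against brain it was higher in 19 and lower in 8 of 93, where 6.64% and 7.40% were. ITGA9 had an interaction of 2.74 against both heart (adjusted p = 0.000315) and brain (adjusted p = 0.000267), its hearts having 5.65, 6.34 and 6.22 in males and 6.55, 6.74, 6.36 and 5.24 in females. LAMA2 gave 2.42 and 2.72, and COL6A1, COL6A2 and COL6A3 gave 1.31, 0.97 and 1.07 against heart and 1.71, 1.30 and 1.08 against brain. In the other direction, COL23A1 gave −4.04 against heart and −4.49 against brain, and ITGA6 gave −1.43 and −1.21. The sex effect in brain minus that in heart was called in 0 of 82 member probe sets by limma, where 0.0154% of all were called higher and 0.0385% lower, and 5 members had an unadjusted p under 0.05 (7.58% of all did).

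**Figure D4:**
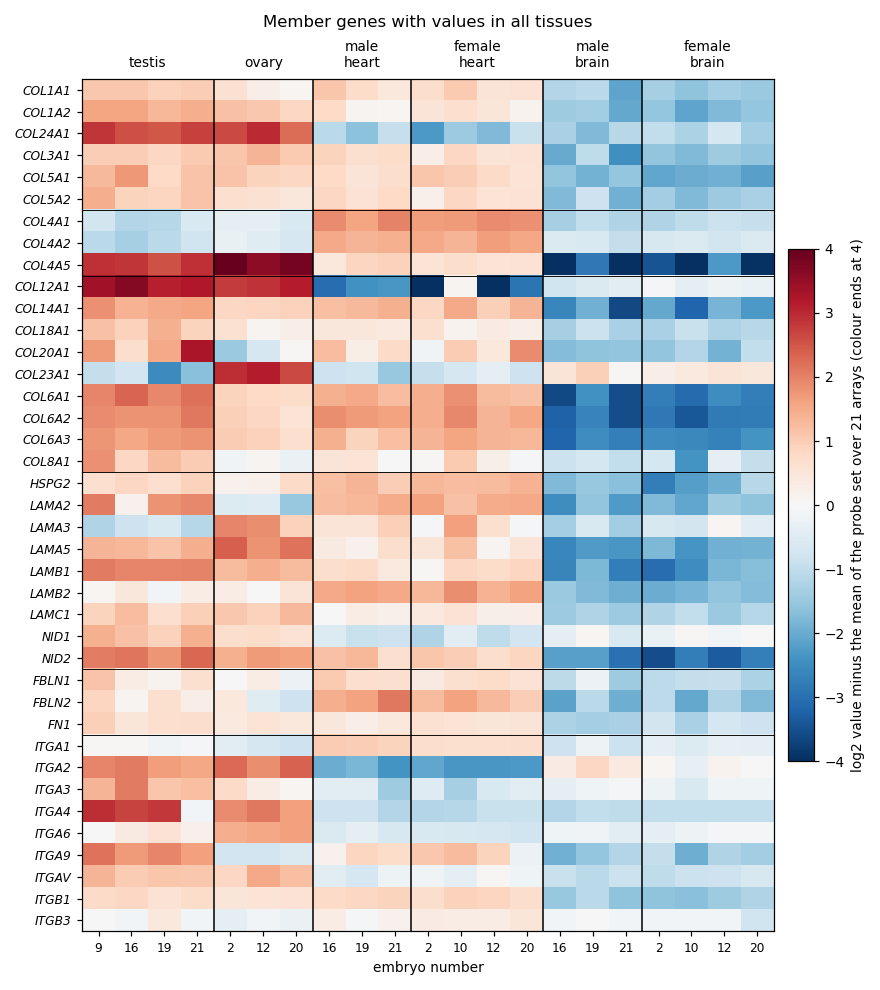
Log2 intensity minus the mean of the probe set over its arrays, for 39 member genes with values in every tissue (rows) and the 21 arrays (columns, by group and embryo). Colours end at −4 and +4. Brain arrays are lowest in most rows.

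Most matrix genes had their lowest values in brain. Of 39 genes measured in every tissue, the group mean was lowest in brain for 28, in heart for 6, in testis for 3 and in ovary for 2. It was highest in testis for 21, in ovary for 9, in heart for 9 and in brain for none. Testis and ovary were ranked apart here, while heart and brain each pooled the sexes. The same ranking over all genes was not made, so these counts have no background beside them. Over all probe sets, too, more were called higher than lower in testis against male brain (34.5% and 23.6%).

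Heart against brain, with both sexes averaged, had 56 of 82 member probe sets called higher and 14 lower, against 33.0% and 25.5% of all 13001. The median log2 fold-change was 2.12 over members and 0.17 over all probe sets. With each array centred on its median, which moves the median of all probe sets to −0.12, the counts were 56 and 16. Calls over all probe sets were then 42.2% higher instead of 56.4%. The marker lists of the same arrays moved too, with 7 of 7 smooth muscle markers called higher in heart, 7 of 9 endothelial markers higher and 1 lower, and 4 of 6 fibroblast markers higher and 2 lower. Their part in the matrix differences was not tested.

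COL6A2, of type VI collagen, differed most between heart and brain. It had 11.96, 11.81 and 11.71 in male hearts and 11.56, 12.03, 11.48 and 11.66 in female hearts, against 6.87, 7.45 and 6.58 in male brains and 7.26, 6.72, 7.29 and 7.31 in female brains. That is a gap of at least 4 log2 units between any heart and any brain (26.0-fold, adjusted p = 2.24e-15). COL6A1 and COL6A3 were 21- and 15.6-fold higher in heart, and COL14A1, a collagen on the surface of fibrils, was 8.16- to 21.2-fold higher over its 3 probe sets. Among basement membrane components, COL4A5 was 24.5-fold, NID2 13.6-fold, LAMA2 9.98-fold, LAMB2, the beta chain of muscle and synapse laminins, 9.88-fold, COL4A1 7.41-fold and COL4A2 4.41-fold higher in heart. All 5 basement membrane collagen probe sets and all 10 of fibronectin and elastic fibre proteins were called higher. ITGA7, the laminin receptor chain of muscle, had 8.89, 9.59 and 9.06 in male hearts and 9.60, 9.30, 9.57 and 9.36 in female hearts. In brain it had 7.06, 6.03 and 6.25 in males and 5.70, 5.62, 5.52 and 6.69 in females (8.91-fold, adjusted p = 1.31e-08).

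A few members ran towards brain. ITGA2, the collagen receptor chain of platelets and epithelia, had 5.31, 5.46 and 4.90 in male hearts and 5.21, 4.94, 4.96 and 4.98 in female hearts, against 7.62, 8.11 and 7.68 in male brains and 7.36, 6.94, 7.42 and 7.29 in female brains (5.31-fold lower in heart, adjusted p = 6.51e-12). It lies on Z beside ITGA1, with 1 gene between them, and ITGA1 was 2.54-fold higher in heart. COL11A1, a fibrillar collagen of cartilage and eye, was lower in heart in all 3 measured probe sets, by 0.96 to 1.72. COL23A1 was 2.52-fold, ITGB5 1.81-fold and NID1 1.53-fold lower in heart. Hearts and brains overlapped in this NID1 probe set, whose call was lost without embryo 19. The other NID1 probe sets measured in both tissues were called lower in heart without overlap, at 1.53- and 3.11-fold. COL12A1, a collagen on the surface of fibrils, was 5.04-fold lower, but heart of female 10 had 8.76 beside 3.88 to 6.30 in the other 6 hearts and 7.83 to 8.55 in brain. Of the other lists, 8 of 15 collagen processing genes were called higher in heart and 1 lower, 8 and 4 of 16 other matrix proteins, 6 and 5 of 12 proteases and inhibitors, and 15 and 4 of 25 adhesion partners. Transglutaminase TGM2 (48.7-fold) and vinculin, VCL (8.41-fold), were among those higher. Over all probe sets, rather than genes, 33.0% were called higher in heart and 25.5% lower.

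Testis against male heart had 38 of 89 member probe sets called higher and 14 lower, against 29.3% and 21% of all. Ovary against female heart had 36 higher and 22 lower, against 30.5% and 21.5%. These counts moved with the scaling of the arrays, since centring each array on its median gave 55 and 13 for testis and 41 and 16 for ovary. Centring moved the median of all probe sets from 0.16 to 0.50 for testis and from 0.16 to 0.45 for ovary, and calls over all probe sets from 58.2% to 74.7% higher and from 58.7% to 72.4% higher. Endothelial markers were lower in gonads, 8 of 9 called in each sex, and smooth muscle markers were called higher and lower in 4 and 2 of 7 for testis and in 1 and 4 of 7 for ovary. Their part was not tested.

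COL12A1, on the surface of collagen fibrils, was far higher in both gonads than in heart. It had 12.01, 12.32, 11.76 and 11.85 in testes and 11.45, 11.54 and 11.77 in ovaries, against 5.58, 6.22 and 6.30 in male hearts and 3.88, 8.76, 4.59 and 5.73 in female hearts. The fold-changes were 61.8 for testis over male heart (adjusted p = 9.67e-07) and 57.6 for ovary over female heart (adjusted p = 1.12e-06). The FBLN5 probe set with the higher ovary values was 59.5-fold higher in ovary than in female heart (adjusted p = 1.58e-07). ITGA2 was 14.7-fold higher in testis and 21.4-fold higher in ovary, and COL24A1, a fibrillar collagen of developing bone and eye in mice, 14.6- and 18.5-fold. ITGA4, the fibronectin and VCAM1 receptor chain, had 12.16, 11.93, 12.03 and 9.09 in testes and 11.10, 11.32 and 10.87 in ovaries, against 8.04 to 8.40 in hearts. The testis of male 21 stood alone, about 3 log2 units under the other testes, and still above all hearts.

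The ubiquitous basement membrane collagens were lower in gonads than in heart. COL4A1 had 11.83, 11.50 and 11.93 in male hearts and 11.61, 11.63, 11.82 and 11.77 in female hearts, so that the testis values given above were 6.64-fold and the ovary values 4.72-fold lower. COL4A2 was 5.64-fold lower in testis and 4.01-fold lower in ovary. COL4A5, in contrast, had 9.03, 9.47 and 9.54 in male hearts and 9.17, 9.33, 9.15 and 9.20 in female hearts, and was 4.24-fold higher in testis and 9.45-fold higher in ovary. Of the 6 basement membrane collagen probe sets shared with heart, 1 was called higher and 5 lower in each gonad. Most of the 5 were of COL4A2. ELN was 2.90-fold lower in testis than in male heart, and LAMA2 was 4.91-fold lower in ovary than in female heart, while in testis it was not called. The COL6A1 values of testis were 1.62-fold above male heart and those of ovary 1.53-fold below female heart. Both calls fell away under some alternatives, the first without embryo 16 or 21 and the second under 7 alternatives (highest adjusted p = 0.201).

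Against brain, both gonads were higher in most matrix genes. Testis had 68 of 93 member probe sets called higher than male brain and 4 lower, against 34.5% and 23.6% of all, with a median log2 fold-change of 2.27 (0.21 over all). Ovary had 66 higher and 4 lower than female brain, against 33.4% and 23.1%, with a median of 1.73 (0.20 over all). Smooth muscle markers were called higher in 6 of 6 in each gonad, and fibroblast and meninges markers in 5 of 7 in each, with 1 lower in testis and 2 lower in ovary. Their part was not tested.

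COL4A5 separated gonads from brain most. Against the gonad values given above, it had 3.56, 5.76 and 3.55 in male brains and 5.15, 4.03, 6.32 and 4.66 in female brains. The fold-changes were 141 for testis (adjusted p = 3.49e-10) and 170.0 for ovary (adjusted p = 2.47e-10), and their size is uncertain since some brain arrays are near background. NID2 had 10.08, 10.18, 9.81 and 10.33 in testes and 9.47, 9.76 and 9.64 in ovaries, against 5.86, 5.88 and 5.05 in male brains and 4.49, 5.28, 4.71 and 5.30 in female brains. It was 22.7-fold higher in testis and 25.7-fold higher in ovary. In 16 of 18 fibrillar collagen probe sets each gonad was called higher than brain, with medians of 3.04 for testis and 2.76 for ovary. Of the 4 probe sets called lower than brain in each gonad, 1 was common to both, that of COL21A1 (1.97-fold lower in testis and 2.17-fold lower in ovary). COL23A1 was 3.97-fold lower in testis than in the brains of males (adjusted p = 3.17e-05), yet in ovary it was 5.64-fold above female brain (adjusted p = 2.48e-06). COL9A3 was 25.9-fold higher in testis than in male brain and 3.30-fold lower in ovary than in female brain, the ovary arrays overlapping the brain arrays and the call being lost without embryo 12 or 20. These opposite directions are those of the interaction above, which gave 6.42 for COL9A3 (adjusted p = 4.45e-05).

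The brain array of male 19 stood somewhat above the other brain arrays over the members. Its difference from the mean of the other 6 brain arrays had a median of 0.182 over 102 member probe sets, against 0.043 over all 16113. It was the highest of the 7 brain arrays in 29.4% of the member probe sets, against 18.0% of all. Of the 102 differences 68 were above 0, and the share above 0 over all 16113 is not given here. The choice of these genes for description named this shift, so it is described and not tested. With 1 probe set per gene the median was 0.199, with arrays centred 0.127, without the genes that match by symbol alone 0.151, and over the 68 probe sets with a higher sex mean of at least 6 it was 0.307 (0.053 over all). Against the other 2 males alone it was 0.229. Limma's array weights, lower where an array strays further from its group, gave this array 0.454, the lowest of the 21 arrays. The other 6 brain arrays had weights of 0.795 to 1.543. The medians of the other brain arrays were −0.027 for male 16, −0.168 for male 21, 0.064 for female 2, −0.114 for female 10, 0.062 for female 12 and 0.120 for female 20, so male 21 was nearly as far below as male 19 was above.

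**Figure D5:**
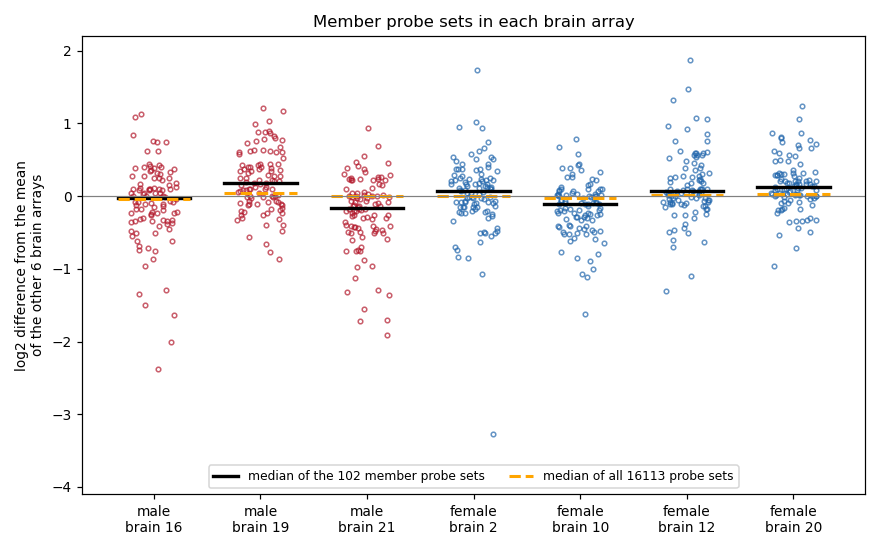
Difference of each of 102 member probe sets from the mean of the other 6 brain arrays, for each brain array. Dots are probe sets, the black line is the median of the members and the dashed orange line the median of all 16113 probe sets. The member median is highest for male 19, at 0.182, and lowest for male 21, at −0.168.

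The median shift differed between the classes, which was not tested. Probe sets of a single gene could run both ways, as those of FN1 did, from −0.33 to 0.43. In the brain of male 19 the median difference was 0.386 for fibronectin and elastic fibre proteins, 0.267 for other collagens, 0.114 for laminins with nidogens and perlecan, 0.097 for integrins, 0.080 for basement membrane collagens and 0.077 for fibrillar collagens. The 9 probe sets of genes that match by symbol alone are not among these classes, and their differences ran from −0.30 to 1.04. The highest of them was a COL4A3BP probe set, whose other probe sets gave 0.40 and −0.22. COL4A5 was 1.21 above, with 5.76 against a mean of 4.55, and FBLN1 was 0.88 above, with 9.99. For COL4A5 a female brain lay higher still, and the other males averaged 3.56, near background. COL3A1 was 0.79 above, with 12.27 beside 10.84 to 11.86 in the other brains, and ITGA11, NID2, COL5A2 and ITGA2 were 0.73 to 0.89 above. LAMA4 was 0.78 above, but 0.24 above without female 2, whose 4.61 lay below all other brain arrays, a comparison added after seeing the data. Some members were lower instead, among them COL24A1 by 0.65 and the 2 weaker HSPG2 probe sets by 0.77 and 0.87. In the same array, markers of smooth muscle were 0.41 above the other brains (highest in 3 of 7), immune cell markers 0.38 (highest in 4 of 5), fibroblast and meninges markers 0.25 (highest in 2 of 7, averaging 8.76 beside 8.27 to 8.54) and endothelial markers 0.24 (highest in 2 of 9). Neuron, glia and red blood cell markers were within 0.06. In female 20, smooth muscle markers were 0.37 above. The part of these cells in the shift was not tested. The heart and the testis of embryo 19 had member medians of 0.016 and 0.088, and other arrays were often the highest in their tissue too, testis 9 in 30.5% of members (12.6% of all probe sets) and male heart 16 in 26.7% (14% of all).

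One gene stood out in a single embryo in both somatic tissues. LAMA4, the laminin alpha chain of vessel walls, had 7.08 in the heart of female 2, against 10.44 to 10.74 in all other hearts. In brain it had 4.61 in female 2, against 7.55 to 8.09 in all others. Among 13001 probe sets with values in brain and heart, this was the only one in which embryo 2 lay over 2 log2 units below every other array in both tissues, a search made after these values were seen. This probe set has no gonad values, but another LAMA4 probe set had 3.43 in the ovary of female 2, against 5.49 and 5.09 in the other ovaries and 5.59 to 7.68 in testes. That second probe set was called 3.68-fold higher in testis (limma, adjusted p = 0.0425). Its ovary mean includes the value of female 2, which is under 4.0, and the result without embryo 2 is not given here. In the first probe set, heart over brain was 6.61-fold (limma, adjusted p = 0.00193) with overlap between the tissues.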

How the data were processed

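RNA of left gonad, heart and brain was measured on Affymetrix chicken arrays. To make the deposited log2 intensities, the authors corrected background by GCRMA, applied quantile normalization and summarized probes by median polish. The submitters' notes name R 2.4.1 and MAS5, whose present calls served as an expression filter. The labels of some samples name a human array, yet all probe sets are chicken ones. The table holds 19874 probe sets with values from 1.68 to 16.2, of which 16197 have 1 gene symbol in the arrays' annotation, 85 several and 3592 none. Each tissue has values for part of them (16499 in gonads, 15282 in heart, 16113 in brain). The GRCg7b RefSeq gene table was used for the chromosomes of members and, by the order of gene starts, for their neighbours.

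Limma 3.58.1 in R 4.3.3 was fitted to the 6 groups of sex and tissue at once, with empirical Bayes and no block, on the deposited values. Calls needed an adjusted p under 0.05 within the comparison, with a fold-change over 1.5. Replicates are different embryos. Gonad, heart and brain arrays with 1 embryo number come from the same animal, and their deviations from group means correlated at 0.164 to 0.455 in all pairs of tissues. The sexes share no embryo. The script was also run on simulated data with known changes. Python 3.11.15, numpy 2.4.6, pandas 2.3.3 and matplotlib 3.10.9 were used for counts and figures.

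Members, gene lists and marker lists were chosen with earlier results of these data known, so no count over them is independent support. A gene was represented by the probe set with the highest mean. Genes were named by a rule that takes the largest called differences without overlap. The limits were up to 14 per direction between testis and ovary, up to 5 in each tissue comparison and up to 6 in brain and heart between the sexes. The rule also takes the 8 matrix or integrin genes in which the brain of male 19 differed most. Fixed family members and the largest called genes of the lists complete the rule. Genes and single probe sets outside it were picked once values were known. They include COL4A3BP, COL13A1, COL19A1, the single COL5A2 and COL11A1 probe sets, and the 7 of the heart comparison. ITGA1, ITGA7, ITGAV, COL4A3, COL14A1, COL21A1, LAMB4, SERPINH1, TGM2 and VCL are outside the rule as well. As alternatives, the tests were repeated with a stricter filter, only the groups compared, the embryo as a block, array weights and centred arrays. The block was random in the sex comparisons and a fixed term in the tissue comparisons and interactions. Other repeats used 1 probe set per gene, a fold-change over 2, another empirical Bayes setting, or left out each embryo in turn. Features of the encoded proteins were not analysed here.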

Additional observations from a re-analysis of the deposited data

Results flagged for a closer look

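Chance marks about 1 in 20 groups of 4 arrays as having an array apart from the others. Among the members, 20 of 175 such groups had one, and 12 of 128 among the genes named above. In testis, these were male 19 for ITGA11 (4.50 beside 4.84 to 4.90) and for ELN (5.85 beside 6.87 to 7.02), male 21 for ITGA4 (9.09 beside 11.93 to 12.16) and for ITGB4 (3.93 beside 4.53 to 4.64), and male 16 for LAMA2 (8.61 beside 10.25 to 10.52). In female heart, female 2 stood apart for LAMA4 (7.08 beside 10.44 to 10.68) and for ITGA2 (5.21 beside 4.94 to 4.98), and female 10 for COL6A3 (13.05 beside 12.80 to 12.84). In female brain, female 2 stood apart for LAMA4 (4.61 beside 7.93 to 8.09), female 20 for ITGB4 (4.98 beside 4.61 to 4.64), and female 10 for COL6A2 (6.72 beside 7.26 to 7.31) and for ITGA3 (5.36 beside 5.76 to 5.80).

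The sex effect, male minus female in log2, differed between tissues by an interaction term in limma for the following named genes. In gonads minus heart it was −4.04 for COL23A1, −2.64 for LAMA3, −1.43 for ITGA6, 0.97 for COL6A2, 1.07 for COL6A3, 1.31 for COL6A1, 2.42 for LAMA2, 2.54 for COL20A1 and 2.74 for ITGA9. In gonads minus brain it was −4.49 for COL23A1, −3.05 for ITGB4, −1.85 for LAMA3, −1.71 for ITGA11, −1.21 for ITGA6, −0.90 for ITGA2, 0.66 for FN1, 0.81 for COL18A1, 1.08 for COL6A3, 1.30 for COL6A2, 1.71 for COL6A1, 2.36 for FBLN7, 2.72 for LAMA2, 2.73 for COL20A1, 2.74 for ITGA9 and 6.42 for COL9A3. For FN1 the sex difference was 0.25 in gonads and −0.41 in brain, and for ITGA2 it was −0.34 in gonads and 0.55 in brain. Several lost the call when 1 embryo was left out: COL20A1 in both, FN1, ITGA2, ITGA11, LAMA3 and COL18A1 against brain, and COL6A1 and COL6A2 against heart.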

How the results depend on the processing

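None of the 199 calls of named members reversed, 158 held under every alternative, and 41 were lost under at least 1. With 1 probe set per gene, members called higher and lower were 17 higher in testis than ovary, 0 and 0 between brains of the sexes, 31 and 7 in heart against brain, 19 and 8 in testis against heart, 37 and 2 in testis against brain, 19 and 14 in ovary against heart, 36 and 2 in ovary against brain, 6 and 3 for the gonad and heart interaction and 12 higher for that with brain, since fewer probe sets are counted. At a fold-change over 2, lower counts were 7 in heart against brain, 2 in testis against brain and 5 in the gonad and brain interaction, and 0 were higher in male brain. The brain sex counts were 0 and 0 with only the groups compared, 2 and 4 with array weights, 0 and 2 with the trended robust fit, and 0 higher with a mean of at least 6. That filter also left 1 lower in ovary against brain and gave 0.307 for male 19. The cause was not tested.

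Leaving out 1 embryo gave 29 (without 20) to 43 higher and 9 to 15 lower in testis against ovary. The other ranges were 0 to 1 and 1 to 4 in male against female brain (4 without 19, 2 without 10, and none higher without 2 or 12), 0 to 1 and 0 to 0 in heart (1 without 16), 56 to 58 and 11 to 14 in heart against brain, 37 to 40 and 14 to 14 in testis against heart, 67 to 70 and 4 to 4 in testis against brain, 29 to 38 and 18 to 22 in ovary against heart, and 61 to 67 and 2 (without 12 or 20) to 5 in ovary against brain. The interactions gave 8 to 12 and 5 to 6 with heart, 12 (without 20 or 21) to 21 and 4 (without 2 or 19) to 8 with brain, and 0 to 0 between brain and heart.

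With the embryo as a random replicate block (correlation 0.121), the counts were 39 and 11 in testis against ovary, 1 and 1 in brain, and 0 and 0 in heart. In the tissue comparisons and interactions the embryo was a fixed term instead. The tissue comparisons then had 56 and 14, 39 and 14, 68 and 4, 38 and 20, and 66 and 3, in the order above. The interactions had 12 and 6, 18 and 7, and 0 and 0. Among calls of named members, the random block ended that of COL4A2 in testis against ovary. The fixed term ended those of COL6A1 and ELN in ovary against heart and of COL8A1 and ITGA3 in ovary against brain. It also ended those of COL6A2 in the gonad and heart interaction and of ITGA11 in that with brain. Signal near background limits the folds of FBLN5, COL9A1, COL9A3, FBLN7, LAMA3 and the called COL13A1 probe set.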
